A study of Mus musculus with 6 samples.

Results

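The axon guidance genes described here are the ligands and receptors of the semaphorin, ephrin, Slit and netrin systems. The rule for members was set with earlier results of these data known. It matched the symbols of semaphorins of classes 3 to 7, plexins, neuropilins, Eph receptors, ephrins, Slits, Robos, netrins, the Unc5 receptors and Dcc. Its matches were 67 of the 24010 named genes. They comprised 31 genes of the semaphorin system (20 semaphorins, 11 plexins and neuropilins), 21 of the ephrin system (13 Eph receptors, 8 ephrins), 6 of the Slit system (3 Slits, 3 Robos) and 9 of the netrin system (4 netrins, 5 Unc5 and Dcc receptors). Ephb2 had no named row and is not among them. RNA came from dorsal pancreatic buds of E11.5 mouse embryos held in culture for 24 h, in pools of 10 buds, with 2 Affymetrix whole-transcript arrays per group. The groups were buds given I-BET151 at 500 nM, buds given JQ1 at 100 nM, and control buds (CTRL) given 0.1% DMSO. Both compounds block the bromodomains with which BET proteins bind acetylated chromatin, and the comparisons ask which genes of the early bud respond to that block. The labels name no strain and leave unstated whether separate litters or days stand behind the pools, so p-values describe how these pools varied, and that variation may be technical.

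Guidance ligands act over short or long range on growing axons, and on migrating cells, vessels and epithelia outside the nervous system. Secreted class 3 semaphorins bind neuropilins, which pair with plexins, whereas most membrane-bound semaphorins bind plexins directly. Ephrins and Eph receptor tyrosine kinases meet on the surfaces of touching cells and signal into both. Slits bind Robo receptors, and netrins bind Dcc and Unc5 receptors. In the mouse pancreas, Eph receptors of the B class take part in epithelial branching, and Robo1 and Robo2 act in pancreatic progenitors.

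Values are intensities on a linear scale as deposited, and intensities of different genes are not levels that can be set against each other. The array medians over all rows were 55 on both I-BET151 arrays, 54 on both JQ1 arrays, and 56 and 57 in CTRL buds. These medians thus differed by group. Of the 67 members, 53 were brighter than the median gene. Control means of the members ran from 13.0 to 1667.5, with a median of 206. No 2 arrays held identical values. Of the pancreatic markers, the progenitor factor gene Pdx1 read 246 and 281 under I-BET151, 244 and 330 under JQ1, and 252 and 228 in CTRL buds. Ptf1a, another, read 53 to 69 on the 6 arrays, near the array medians. No detection call was made for either.

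Under I-BET151 no member changed by limma at an adjusted p under 0.05, a threshold that 1.13% of all genes passed (0.262% higher, 0.87% lower), and 1.77% of the brighter 50% of genes. At an unadjusted p under 0.05 there were 9 members higher and 10 lower, or 28.4% of them, beside 18.9% of all genes and 27.5% of the brighter 50%. Under JQ1 3 of 67 members changed: Ephb3 rose, and Sema6b and Ntn4 fell. That is 4.48% of the members, beside 3.8% of all genes (1.13% higher, 2.67% lower) and 6.25% of the brighter 50%, so the share was near the background. At an unadjusted p under 0.05 there were again 9 higher and 10 lower, beside 21.6% of all genes and 32.1% of the brighter 50%. For the mean of both inhibitors Robo2 fell as well, giving 1 rise and 3 falls (5.97% of members, beside 4.92% of all genes, 1.59% higher and 3.33% lower, and 8.1% of the brighter 50%). At an unadjusted p under 0.05 that contrast had 10 higher and 10 lower, beside 22.7% of all genes and 34.2% of the brighter 50%.

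The split of rises and falls depended on the scaling. After the arrays were centred on their medians, 3 members rose and 1 fell under JQ1 (5.97% of members, beside 5.79% of all genes with that scaling), and 5 rose and 5 fell for the mean of both (14.9%, beside 7.24%). Most members are among the brighter 50% of genes, whose share was not computed with that scaling. Every call ended when any 1 of the 6 arrays was left out, whether CTRL 1 or 2, JQ1 1 or 2, or I-BET151 1 or 2, and in those fits no gene of the whole table was called either. The same held under JQ1 when its arrays and the CTRL arrays were fitted alone, where the adjusted p was 0.0857 for Ephb3, 0.0882 for Sema6b and 0.104 for Ntn4. Without the dimmest 50% of genes, which leaves out Ntn4 and Sema6b, Ephb3 and Robo2 kept their direction without each of the 6 arrays. Calls in those fits, which leave 1 array in a group, are given beside the shares of all genes in the last section.

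**Figure D1:**
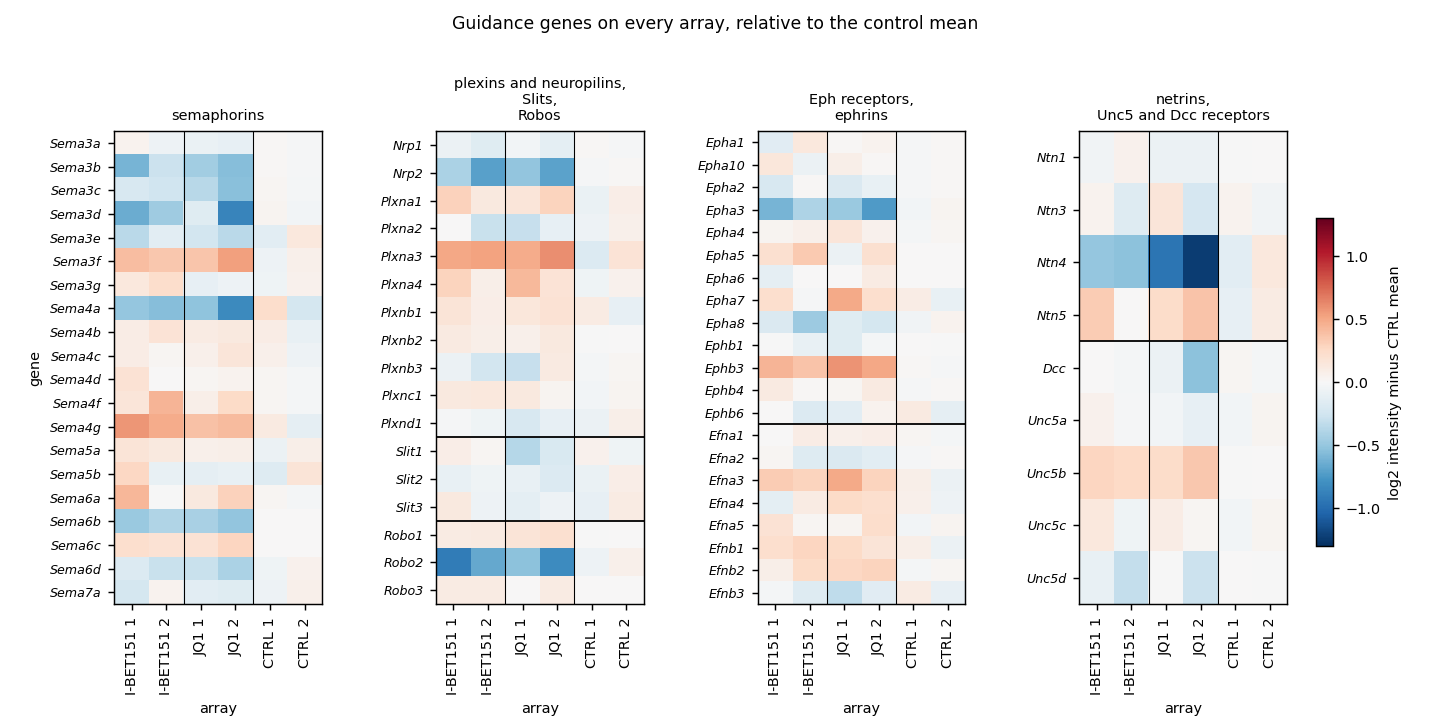
Each cell gives the log2 intensity of one guidance gene (rows, grouped by class) on one array (columns: I-BET151, JQ1, CTRL) minus the mean of the 2 CTRL arrays. Rows such as Robo2, Nrp2, Epha3 and Ntn4 are blue on all 4 treated arrays, Plxna3, Ephb3 and Sema3f are red on all 4, and most other rows are pale.

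The 4 called genes belong to 4 different classes. Ephb3 encodes an Eph receptor for B-class ephrins that in the mouse pancreas marks endocrine progenitors as they leave the epithelium. It read 463 and 439 in I-BET151 buds, 509 and 482 in JQ1 buds, and 345 and 336 in CTRL buds, so that all treated arrays lay above both controls. The means were 451 ± 17 under I-BET151, 495.5 ± 19.1 under JQ1 and 340.5 ± 6.36 in CTRL buds (SD, n = 2 each). The log2 change was 0.54 ± 0.06 under JQ1 (SE, limma adjusted p = 0.0286; 1.45-fold higher), and 0.41 ± 0.06 under I-BET151, where the adjusted p was 0.0741.

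Sema6b encodes a membrane-bound semaphorin that binds A-class plexins. Its row was dim, at 45 and 48 under I-BET151, 47 and 44 under JQ1, and 63 on both CTRL arrays. All 4 treated arrays were lower than the controls. The log2 change was -0.47 ± 0.07 under JQ1 (adjusted p = 0.0403; 1.39-fold lower) and -0.44 ± 0.07 under I-BET151 (adjusted p = 0.0713). The JQ1 call ended with arrays centred on their median (adjusted p = 0.0528) and with an intensity trend (adjusted p = 0.0548).

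Ntn4 encodes netrin-4, a laminin-related protein of basement membranes. Its row was dim, among the lower 50% of genes, at 45 and 44 in I-BET151 buds, 33 and 27 in JQ1 buds, and 58 and 70 in CTRL buds. The 3 groups did not overlap, with the JQ1 arrays lowest. The means were 44.5 ± 0.71, 30 ± 4.24 and 64 ± 8.49 in I-BET151, JQ1 and CTRL buds (SD, n = 2 each). The fall under JQ1 was 2.13-fold (log2 change -1.09 ± 0.14, adjusted p = 0.0323), the largest change of any member. Under I-BET151 it was 1.43-fold lower and was not called (log2 change -0.52 ± 0.14, adjusted p = 0.162). The direct contrast of JQ1 with I-BET151, whose doses differ, did not pass for this gene (log2 difference -0.58, adjusted p = 0.718).

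Robo2 encodes a Slit receptor. It read 329 and 388 under I-BET151, 425 and 349 under JQ1, and 590 and 644 in CTRL buds, with no overlap between treated and control arrays. It fell for the mean of both inhibitors by 0.73 ± 0.12 on the log2 scale (adjusted p = 0.0457). Neither compound passed alone. I-BET151 buds were 1.73-fold below the controls (-0.79 ± 0.14 on the log2 scale, adjusted p = 0.0861). JQ1 buds were 1.60-fold below them (-0.68 ± 0.14, adjusted p = 0.0740).

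**Figure D2:**
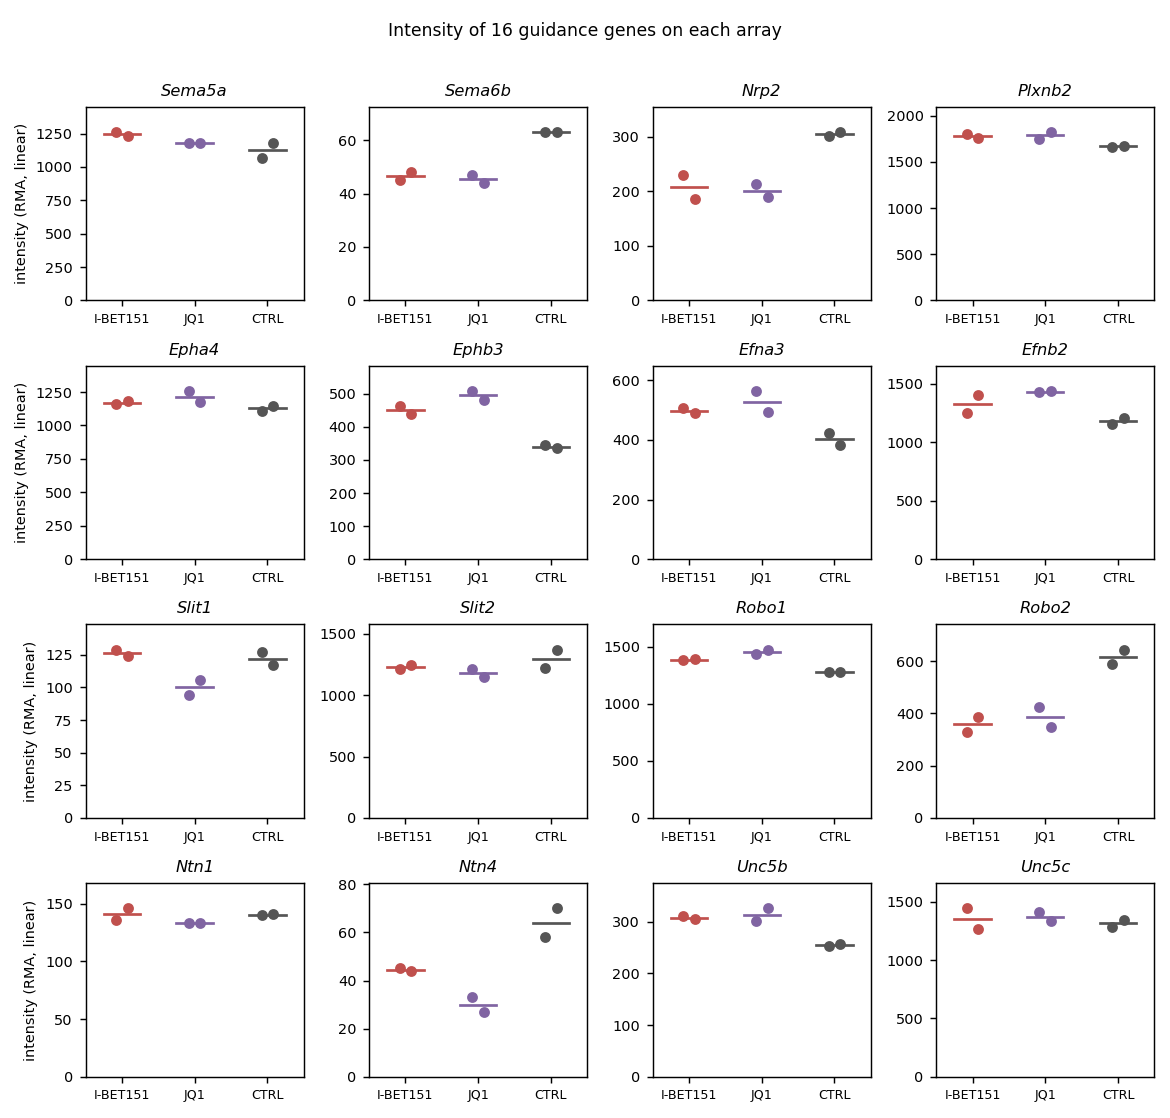
Intensity (linear scale, each axis from 0) of 16 guidance genes on each array, with I-BET151 left, JQ1 in the middle and CTRL right. Points are arrays and bars are the means of 2 arrays. Robo2 reads 329 to 425 on the treated arrays and 590 to 644 on the control arrays. Robo1, Plxnb2, Slit2 and Unc5c differ less between groups. Of these, Robo1 and Plxnb2 are higher on all treated arrays than on both control arrays.

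The promoters of the 4 called genes are shown so that they can be compared, as the 250 bases before the first start that RefSeq lists (GRCm38.p6). The windows are chr16:21204545-21204794 on the plus strand for Ephb3, chr17:56140344-56140593 on the minus strand for Sema6b (first of 2 starts), chr16:75447294-75447543 on the minus strand for Robo2 (first of 3 starts) and chr10:93640799-93641048 on the plus strand for Ntn4. Capitals mark the GC box GGGCGG, the letters bound by Sp1 factors, on either strand.
Ephb3: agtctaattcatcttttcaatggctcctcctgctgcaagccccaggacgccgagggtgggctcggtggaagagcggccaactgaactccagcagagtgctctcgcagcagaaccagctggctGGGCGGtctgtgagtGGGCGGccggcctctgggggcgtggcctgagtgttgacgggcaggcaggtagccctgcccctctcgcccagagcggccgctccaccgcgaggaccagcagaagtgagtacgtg
Sema6b: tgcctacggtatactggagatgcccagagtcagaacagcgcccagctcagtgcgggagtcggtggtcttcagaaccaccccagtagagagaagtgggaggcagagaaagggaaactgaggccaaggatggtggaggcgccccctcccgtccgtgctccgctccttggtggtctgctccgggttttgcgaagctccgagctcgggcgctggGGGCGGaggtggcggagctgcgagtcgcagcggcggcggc
Robo2: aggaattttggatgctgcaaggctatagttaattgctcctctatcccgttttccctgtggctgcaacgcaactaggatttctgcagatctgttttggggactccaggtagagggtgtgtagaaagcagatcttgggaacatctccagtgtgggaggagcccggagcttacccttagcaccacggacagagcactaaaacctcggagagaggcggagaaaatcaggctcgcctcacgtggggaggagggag
Ntn4: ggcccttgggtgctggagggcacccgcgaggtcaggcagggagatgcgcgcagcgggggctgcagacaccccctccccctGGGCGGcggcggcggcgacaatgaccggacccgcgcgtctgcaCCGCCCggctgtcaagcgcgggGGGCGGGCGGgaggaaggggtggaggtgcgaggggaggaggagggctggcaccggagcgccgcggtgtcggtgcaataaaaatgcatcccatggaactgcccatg
Ntn4 had 4 matches, 2 of them overlapping, Ephb3 had 2, Sema6b had 1 and Robo2 had none. CpG dinucleotides numbered 16 in Ephb3, 20 in Sema6b, 8 in Robo2 and 26 in Ntn4. None of the 4 windows held the TATA box TATAAA or the CCAAT box CCAAT on either strand, and Robo2 alone held the E-box CACGTG. Promoter windows were matched for 57 of the 67 members, and Dcc, Efnb3, Ntn1, Plxna1, Plxna4, Sema3b, Sema3f, Sema6a, Slit1 and Unc5d are named only. Of the 57 promoters, 75.4% held the GC box and 3.51% the TATA box, beside 33.0% and 13.0% of 27025 promoters of all genes in the RefSeq promoter set. That set was not limited to genes of the array or to protein-coding genes, so it is an unlike background for the members. CCAAT was present in 24.6% of the 57 and 34.5% of all, and CACGTG in 5.26% and 6.04%. The median CpG count was 16 in the 57 and 6 in all, and the median share of G and C was 64.8% and 52.0%.

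By system, the medians of the log2 change lay near 0. The semaphorin system had a median of 0.08 under I-BET151 and -0.08 under JQ1, the ephrin system 0.04 and 0.07, the Slit system 0.04 and -0.12, and the netrin system 0.004 and -0.07. Over all genes the medians were 0.003 and 0.02. The semaphorin median under JQ1 turned to 0.07 without the dimmest 50% of genes, and to 0.01 and 0.03 without CTRL 2 and without JQ1 1, so its sign rests on single arrays. With arrays centred on their median it was -0.02. None of the systems moved as a block: positive and negative log2 changes numbered 17 and 14 in the semaphorin system, 11 and 10 in the ephrin system, 4 and 2 in the Slit system and 5 and 4 in the netrin system under I-BET151. Under JQ1 these counts were 15 and 16, 14 and 7, 2 and 4, and 3 and 6. The treated and control arrays did not overlap for 34 members under I-BET151 (20 above, 14 below). For all genes 42.1% did so (21.5% above, 20.7% below), and 59.5% of the brighter 50%. Under JQ1 the arrays did not overlap for 50 members (24 above, 26 below), beside 44.9% of all genes (23.9% above, 21.0% below) and 62.8% of the brighter 50%.

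**Figure D3:**
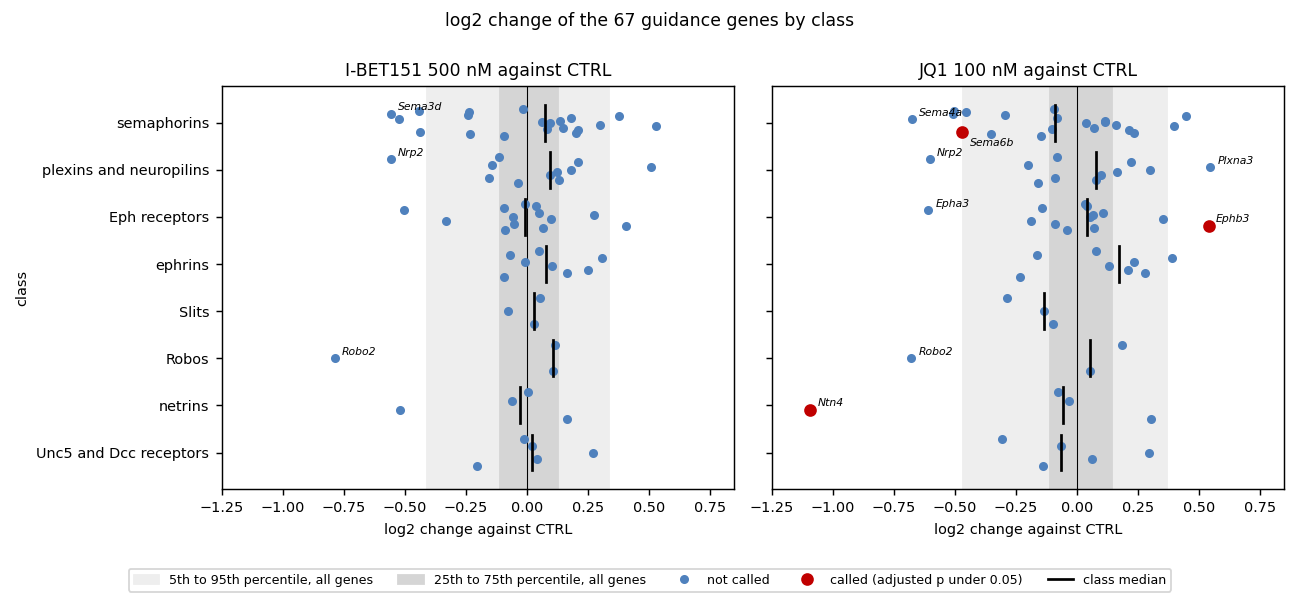
Points are the log2 changes of single members against CTRL by class, for I-BET151 (left panel) and JQ1 (right panel). Black bars are class medians, grey bands hold the middle 50% and 90% of all genes, and the red points are Ephb3, Sema6b and Ntn4 under JQ1.

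All 4 treated arrays lay on one side of both control arrays for 27 members, or 40.3%, where 29.4% of all genes and 46.1% of the brighter 50% did so. The semaphorin system held 16 of these (8 above, 8 below), the ephrin system 7 (5 above, 2 below), and the Slit and netrin systems 2 each (1 above, 1 below).

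Among the ligands of the semaphorin system, the 7 secreted class 3 members had a median log2 change of -0.24 under I-BET151 and -0.29 under JQ1. The I-BET151 arrays lay below both controls for 3 of the 7 and above both for 2, and the JQ1 arrays below for 6 and above for Sema3f. Of all genes, 20.7% lay below and 21.5% above in I-BET151 buds, and 21.0% below and 23.9% above in JQ1 buds. Sema3c read 168 and 162 under I-BET151, 151 and 133 under JQ1, and 198 and 191 in CTRL buds, and its log2 change under JQ1 was -0.46 ± 0.08 (adjusted p = 0.0602). Sema3f, a ligand of neuropilin-2, read 860 and 834 under I-BET151, 839 and 943 under JQ1, and 621 and 685 in CTRL buds, with log2 changes of 0.38 ± 0.09 and 0.45 ± 0.09 (adjusted p = 0.134 and 0.0727). Sema3b, at 28 to 35 on the treated arrays and 43 and 42 in CTRL buds, and Sema3d, at 26 to 42 and at 48 and 46, were dim and were not called. Sema3a, the ligand of neuropilin-1, stayed within 207 to 229 on all arrays. Sema3e, which binds Plxnd1 without a neuropilin, read 25 to 29 on the treated arrays and 29 and 35 in CTRL buds, and Plxnd1 itself 702 to 804 and 770 and 855. Sema3g had log2 changes of opposite sign, with 135 and 143 in I-BET151 buds, 114 and 117 in JQ1 buds, and 118 and 127 in CTRL buds, and its contrast of JQ1 with I-BET151 had an adjusted p of 0.718. These class 3 genes were picked out after their values were seen.

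Membrane-bound semaphorins were mixed. Sema4g, also chosen after its values were seen, read 169 and 159 under I-BET151, 148 and 151 under JQ1, and 123 and 105 in CTRL buds, with adjusted p of 0.0905 and 0.103. Of 6 class 4 members, Sema4a alone had negative log2 changes (-0.52 ± 0.19 and -0.68 ± 0.19), with control arrays that differed, at 98 and 71. Sema5a, the brightest semaphorin row, read 1261 and 1228 under I-BET151, 1177 and 1180 under JQ1, and 1067 and 1180 in CTRL buds, and its intervals (-0.04 to 0.34 and -0.12 to 0.26) included 0. Of the 4 class 6 members, which bind A-class plexins, Sema6c read 168 to 179 on the treated arrays and 148 on both CTRL arrays (adjusted p = 0.186 and 0.115). Sema6d lay on the other side, at 425 to 501 and at 545 and 586 (adjusted p = 0.239 and 0.0988). Sema6a varied within a group, at 1138 and 841 under I-BET151, and was not called. The remaining semaphorins, Sema4b, Sema4c, Sema4d, Sema4f, Sema5b and the membrane-anchored Sema7a, had log2 changes between -0.15 and 0.30, none of them called.

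Among the receptors of semaphorins, no gene was called. The neuropilin arrays lay below both controls under each compound, and most plexin changes were positive. Nrp2, a co-receptor for class 3 semaphorins and VEGF-C, read 230 and 187 under I-BET151, 214 and 189 under JQ1, and 302 and 309 in CTRL buds. Its treated arrays were all lower, by 1.47-fold and 1.52-fold, and missed the threshold for I-BET151, JQ1 and their mean (adjusted p = 0.126, 0.0772 and 0.0582). Nrp1 had log2 changes of -0.12 ± 0.07 and -0.08 ± 0.07. Plxna3, a partner of Nrp2, read 282 and 286 under I-BET151, 279 and 304 under JQ1, and 176 and 226 in CTRL buds, with an adjusted p of 0.0792 for the mean of both. Of the 9 plexins 6 had positive log2 changes under each compound. Plxna1 had log2 changes of 0.21 (I-BET151) and 0.22 (JQ1) and Plxna4 of 0.18 and 0.30, whereas Plxna2 had -0.14 and -0.20. Plxnb1, Plxnb3 and Plxnc1 lay between -0.16 and 0.17. Plxnb2, the brightest row of the members, read 1803 and 1761, 1750 and 1823, and 1659 and 1676 in I-BET151, JQ1 and CTRL buds, a log2 change of 0.10 ± 0.06 under each compound that was not called.

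In the ephrin system, 5 of 8 ephrins had positive log2 changes under I-BET151 and 6 of 8 under JQ1, and none was called. Efna3, a membrane-anchored A-class ephrin, read 505 and 490 under I-BET151, 564 and 492 under JQ1, and 424 and 381 in CTRL buds (log2 changes 0.31 ± 0.10 and 0.39 ± 0.10, adjusted p = 0.203 and 0.109). Efnb2, a transmembrane ephrin best known in arteries, read 1247 and 1405, 1427 and 1440, and 1159 and 1204 in I-BET151, JQ1 and CTRL buds (log2 changes 0.16 ± 0.08 and 0.28 ± 0.08, adjusted p = 0.357 and 0.136). Efnb1, another transmembrane ephrin, read 686 and 714 under I-BET151, 701 and 659 under JQ1, and 621 and 557 in CTRL buds (adjusted p = 0.206 and 0.233). Efna1, Efna2, Efna4, Efna5 and Efnb3 had log2 changes between -0.24 and 0.23. Ephb4, the receptor of ephrin-B2 known from veins, had log2 changes of 0.06 ± 0.07 and 0.07 ± 0.07. The Eph receptors with a named row, which leave out Ephb2, were not called other than Ephb3. Epha4, the brightest of them, read 1158 and 1181, 1259 and 1172, and 1111 and 1147, with a change under JQ1 between -0.06 and 0.27 on the log2 scale. Epha3 had the lowest change in its class, with 344 and 396 under I-BET151, 375 and 313 under JQ1, and 511 and 535 in CTRL buds (adjusted p = 0.137 and 0.0716). Epha7 read 530 and 450 under I-BET151, 641 and 529 under JQ1, and 486 and 427 in CTRL buds, with a spread within groups as wide as the differences between them for I-BET151 (log2 change 0.10 ± 0.14). Epha1, Epha2, Epha8, Epha10, Ephb1 and Ephb6 had log2 changes between -0.33 and 0.04. Epha5 and Epha6 lay at 12 to 24 on all arrays, where rounding to whole numbers leaves coarse steps.

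In the Slit system no ligand was called, and the signs of the receptor changes differed. Slit2, the brightest Slit row, read 1209 and 1247 under I-BET151, 1213 and 1146 under JQ1, and 1222 and 1371 in CTRL buds. Slit1 read 129 and 124, 94 and 106, and 127 and 117 in I-BET151, JQ1 and CTRL buds, with a log2 change of -0.29 ± 0.09 under JQ1 (adjusted p = 0.159). Slit3 stood at log2 changes of 0.03 ± 0.11 and -0.10 ± 0.11. Robo1, which like Robo2 binds Slits, read 1381 and 1393 under I-BET151, 1439 and 1476 under JQ1, and 1280 and 1283 in CTRL buds. Its log2 changes of 0.11 ± 0.05 and 0.19 ± 0.05 were not called (adjusted p = 0.348 and 0.144) and had the sign opposite to those of Robo2. Robo3 was dim, at 13 or 14 on all arrays.

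In the netrin system Ntn4 was the one called gene. Ntn1, the classical long-range netrin, read 136 and 146 under I-BET151, 133 on both JQ1 arrays, and 140 and 141 in CTRL buds, with log2 changes of 0.00 ± 0.06 and -0.08 ± 0.06. Ntn3 read 89 to 115 and Ntn5 26 to 36 over the 6 arrays, and neither was called. Among the receptors, Unc5b, which is known from vessels as well as axons, read 311 and 305 under I-BET151, 301 and 326 under JQ1, and 254 and 257 in CTRL buds. Its 4 treated arrays were all above the controls (log2 changes 0.27 ± 0.06 and 0.29 ± 0.06), with adjusted p of 0.137 and 0.0866. Unc5c, the brightest netrin receptor row, read 1444 and 1269, 1410 and 1335, and 1285 and 1345, and overlapped between groups. Unc5a and Unc5d had log2 changes between -0.20 and 0.02. Dcc was dim, at 38 to 56, and was lower on 1 JQ1 array, at 38, than on all others, at 52 to 56.

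No member, and none of the 24010 genes, differed between JQ1 and I-BET151 by limma, and 4 of 67 members had an unadjusted p under 0.05 in that contrast, beside 6.71% of all genes and 7.18% of the brighter 50%. The doses differ, so this contrast is not one of the compounds at matched dose. Both comparisons with DMSO share the same CTRL arrays.

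Of 55 further genes that act in guidance, namely other ligands, receptors and intracellular partners, 53 had a named row. Under I-BET151, where 1.13% of all genes were called, Rgmb rose and Ablim1 fell. Under JQ1, where 3.8% were, Rgmb and Farp2 rose and Ablim1, Robo4, Dpysl3, Fes and Cntn1 fell. For the mean of both, Evl, which acts on actin filaments, rose with Rgmb and Farp2, and the same 5 genes fell. That made 8 of 53, or 15.1% of the list, beside 4.92% of all genes and 8.1% of the brighter 50%. The list was chosen with earlier results of these data known, so this share is not a test of the list. These calls depended on single arrays, as those of the members did. The list's median log2 changes were 0.03 under I-BET151 and -0.0004 under JQ1. Ablim1, an actin-binding protein whose Caenorhabditis elegans counterpart acts in netrin guidance, read 120 and 107 under I-BET151, 116 and 104 under JQ1, and 209 and 205 in CTRL buds (log2 changes -0.87 and -0.91, adjusted p = 0.0443 and 0.0214). Rgmb, a neogenin ligand and BMP co-receptor, read 596 and 642 under I-BET151, 566 and 591 under JQ1, and 415 and 406 in CTRL buds (0.59 and 0.49, adjusted p = 0.0460 and 0.0357). Farp2, which couples A-class plexins to small GTPases, read 212 and 235, 223 and 212, and 154 and 146 in I-BET151, JQ1 and CTRL buds (adjusted p = 0.0600 and 0.0426). Robo4, the Robo gene of endothelium, read 210 and 241, 176 and 171, and 288 and 323 in I-BET151, JQ1 and CTRL buds (-0.44 and -0.81, adjusted p = 0.128 and 0.0304). Dpysl3, a cytoplasmic phosphoprotein of growth cones, Fes, a tyrosine kinase, and Cntn1, an adhesion protein of axons, had JQ1 log2 changes of -0.46, -0.58 and -0.45 (adjusted p = 0.0460, 0.0379 and 0.0491).

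Most markers of the tissues around the epithelium had negative log2 changes, and a minority of each list was called. Log2 changes were negative under JQ1 for 14 of 14 endothelial, 11 of 14 mesenchyme and 10 of 11 neural crest, glia and neuron markers, and for 8 of 14 pancreatic epithelium markers. Under I-BET151 these counts were 14, 11, 10 and 6. By limma 2 endothelial, 2 mesenchyme and 2 neural crest, glia and neuron markers fell under I-BET151 (14.3%, 14.3% and 18.2% of these lists, beside 0.87% of all genes) and 5, 4 and 4 under JQ1 (35.7%, 28.6% and 36.4%, beside 2.67%). The mesenchyme markers Barx1 and Nkx3-2 had positive log2 changes under both compounds. Among the epithelial markers Mnx1, a factor of early pancreas and later beta cells, rose and Krt18, a keratin, fell under JQ1. Summed endothelial intensity was 5276 and 5694 under I-BET151, 5016 and 5111 under JQ1, and 7120 and 7314 in CTRL buds. Summed mesenchyme intensity was 8356 and 8565, 8121 and 8114, and 9923 and 10253 in I-BET151, JQ1 and CTRL buds. The sum over neural crest, glia and neuron markers was 1898 and 2082 under I-BET151, 1735 and 1839 under JQ1, and 3004 and 3020 in CTRL buds. That over epithelial markers was 15062 and 14651, 13573 and 14779, and 14793 and 15162, and overlapped. Bright rows weigh most in such sums. In the neural list, Fabp7 read 191 and 317 under I-BET151, 154 and 185 under JQ1, and 795 and 829 in CTRL buds. In the epithelial list, Gcg read 4740 to 5494 and Cpa1 2568 to 3183 over the 6 arrays. The epithelial overlap therefore says little about its dimmer rows. The lowest single values in the first 3 lists were 47, 10 and 19, where the lowest value of the whole table is 5. In pooled buds fewer cells of a type and less RNA per cell cannot be told apart, and the part of these tissues in the values of Robo2, Ntn4, Nrp2, Epha3, Sema6b and Robo4 was not tested.

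**Figure D4:**
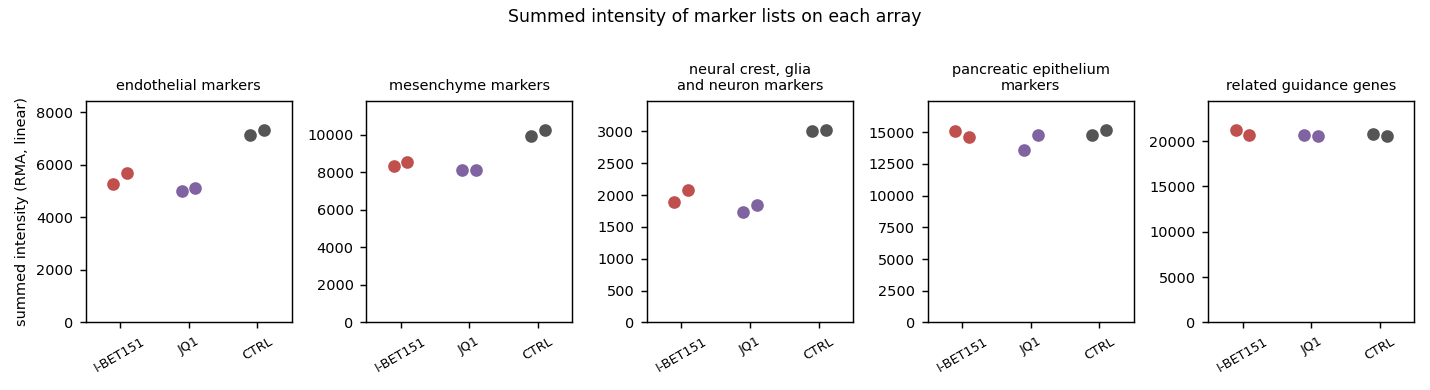
Summed intensity (linear scale, axes from 0) of 4 marker lists and of the related guidance genes on each array, with I-BET151 left, JQ1 in the middle and CTRL right. Endothelial, mesenchyme and neural sums are lower on all 4 treated arrays than on both control arrays, while the epithelial and related guidance sums overlap.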

How the data were processed

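Expression in 6 pools of mouse pancreatic buds was measured on 6 arrays in 3 groups of 2, taken from the sample titles. The authors normalized the arrays with RMA, per the submitters' processing notes, and the deposited values are whole-number intensities on a linear scale, from 5 upward. Because RMA scales the arrays to one another, a shift common to most genes is lost or reduced. The medians of the deposited values still differed between groups. How values returned to a linear scale was not stated.

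Of 24972 rows, 24014 had 1 symbol in the platform's annotation, none had several and 958 were unnamed here. The brightest row was kept for 4 symbols with more than 1 row. From these intensities log2 was taken with no pseudocount or filter, and limma 3.58.1 in R 4.3.3 was fitted to all 6 arrays (3 residual and 1.76 prior degrees of freedom). P-values were adjusted by Benjamini-Hochberg over 24010 genes, and calls were made at 0.05. The verbs rose and fell mark called genes. The fit was run on simulated data with known changes, where only the size and direction of its estimates had to pass. That run set no requirement on the calls. Intervals are 95% intervals of the fit, and 2 arrays per group limit the precision. Genes given on every array were the called members and, in each of 8 classes, the brightest and the one with the smallest p for the mean of both inhibitors; others named were chosen after their values were seen. The members, lists and rules were chosen with earlier results of these data known. Alternatives covered scaling, dim genes, pseudocount, rounding, variance prior, arrays fitted, replicate number and single arrays.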

Additional observations from a re-analysis of the deposited data

How the results depend on the processing

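The number of members called depended on how dim genes entered the fit. Without the dimmest 25% of genes, 4 of 65 were called under I-BET151, 8 under JQ1 and 11 for the mean of both (6.15%, 12.3% and 16.9%, beside 4.43%, 9.62% and 11.4% of all genes in those fits). Without the dimmest 50%, 7, 12 and 13 of 53 were called (13.2%, 22.6% and 24.5%, beside 11.8%, 19.7% and 22.3%). With rounding dithered the counts were 1, 7 and 9 (1.49%, 10.4% and 13.4%, beside 2.48%, 5.58% and 6.37%). Centring arrays on their median, a pseudocount of 10 or an intensity trend gave 1 each under I-BET151 (Sema4g, Ephb3 and Ephb3), 4 each under JQ1, and 10, 10 and 9 for the mean of both. The shares of all genes were 2.22%, 2.18% and 1.86% under I-BET151, 5.79%, 6.19% and 5.74% under JQ1, and 7.24%, 7.51% and 7.0% for the mean of both. Fitting only the arrays compared gave 0 and 0 under I-BET151 and JQ1. Replicate numbers did not pair the pools (r of -0.040 to -0.016 between deviations of arrays with the same number), and with the replicate block 0 members and 0 of all genes were called against CTRL. Leaving out single arrays gave 0 calls for all 3 comparisons. With the dimmest 50% also left out, the fits without single arrays called 1, 2 or 5 members under I-BET151, 2, 3, 4, 6 or 10 under JQ1, and 3, 5, 9 or 10 for the mean of both, beside 3.14% to 8.68%, 7.92% to 18.4% and 8.34% to 19.3% of all genes. JQ1 against I-BET151 gave 0 calls in every alternative run.

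The semaphorin median under JQ1 was -0.0189 with arrays centred, 0.071 without the dimmest 50%, and -0.084 to 0.033 without single arrays. With both changes it was 0.038 and 0.044 without CTRL 1 and 2, 0.071 without either I-BET151 array, and 0.046 and 0.069 without JQ1 1 and 2. Under I-BET151 it was 0.0095 to 0.10 without single arrays. The Slit median without single arrays was -0.21 to -0.021 under JQ1 and -0.0146 to 0.09 under I-BET151. With the dimmest 50% also left out it was -0.22 under JQ1 without CTRL 1, and -0.078 and -0.054 under I-BET151 without CTRL 1 and I-BET151 1. The causes were not tested. Changes near 0 turned sign: Ntn1 to 0.021 for the mean of both with arrays centred. Without single arrays, and the same with the dimmest 50% left out, the I-BET151 changes ran from -0.047 to 0.055 for Ntn1 (-0.000908 without CTRL 1), -0.00597 to 0.11 for Slit1, -0.16 to 0.0069 for Slit2 and -0.051 to 0.14 for Unc5c, and the JQ1 change of Sema5a from -0.00184 to 0.14. Ephb3, Ntn4, Sema6b and Robo2 kept their direction in all alternatives that held them. Dim rows such as Ntn4 and Sema6b, with 2 arrays per group, limit the precision.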
